A study of Mus musculus with 6 samples.

Results

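Transcripts of the cytosolic ribosomal proteins were followed in macrophages sorted from the mouse pancreas after acute pancreatitis. The genes were taken by name. All rows named Rpl or Rps with a number were used, with a following a, x, l or l1 allowed, together with Rplp0, Rplp1, Rplp2 and Rpsa. This gave 84 of the 31617 genes in the deposited table: 30 of the small (40S) subunit, 43 of the large (60S) subunit, the 3 stalk proteins of the 60S subunit and 8 paralogs, that is, further genes resembling a ribosomal protein gene whose names end in l or l1. Of these 84 genes, 76 were among the 10000 genes with the highest mean over all libraries, called expressed genes here, and the counts and medians below are over those 76.

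The mice were wild type, of the strain Balb/c, and no source used here gives their age. Caerulein, an analogue of the hormone cholecystokinin that overstimulates the acinar cells of the pancreas, was given as 10 hourly intraperitoneal injections after an overnight fast. Macrophages, sorted as CD45+CD11b+F4/80+ cells, were taken on days 1, 3, 4, 5 and 7. Day 4 is named in the labels of its sample and not in the design text. The control library, called mock and counted as day 0, came from saline-injected mice according to the design text, while its label gives no treatment. Each day was measured in a single pool, of more than 3 mice, and hence 1 library. Differences between days thus lack a replicate check, and no pair of days was tested.

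A ribosome is built of a 40S subunit, which holds the mRNA and reads its codons, and a 60S subunit, which joins the amino acids, and nearly every subunit protein is needed in equal amount. The mRNAs of these proteins begin with a run of pyrimidines (the terminal oligopyrimidine or TOP motif) through which the growth kinase mTORC1 sets how well they are translated, so their amount of mRNA does not show their translation. In macrophages, as in other cells, these are among the abundant and steadily expressed mRNAs, and growing or dividing cells need more ribosomes.

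Promoter sequences are shown for 7 genes, to set those whose levels followed the common course most closely (Rpl23, Rps25 and Rplp2) beside those that left it (Rps27, Rpl22l1, Rpl7l1 and Rps27l). They are from RefSeq, build GRCm38.p6, and run from 80 bases before to 20 bases after the annotated start of the gene, 5′ to 3′ on its own strand. Capitals mark the motifs searched, with pyrimidine runs marked only within 20 bases of the start.
Rpl23 (chr11:97782420-97782519, minus strand): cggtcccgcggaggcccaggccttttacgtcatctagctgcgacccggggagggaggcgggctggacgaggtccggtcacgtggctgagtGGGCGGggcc
Rps25 (chr9:44407634-44407733, plus strand): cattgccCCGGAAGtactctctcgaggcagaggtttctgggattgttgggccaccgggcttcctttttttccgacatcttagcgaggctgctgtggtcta
Rplp2 (chr7:141447571-141447670, plus strand): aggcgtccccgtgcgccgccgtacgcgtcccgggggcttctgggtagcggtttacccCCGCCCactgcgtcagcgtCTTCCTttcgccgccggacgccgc
Rps27 (chr3:90213629-90213728, minus strand): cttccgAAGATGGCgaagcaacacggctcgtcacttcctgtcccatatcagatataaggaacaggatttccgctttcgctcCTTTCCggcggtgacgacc
Rpl22l1 (chr3:28805428-28805527, plus strand): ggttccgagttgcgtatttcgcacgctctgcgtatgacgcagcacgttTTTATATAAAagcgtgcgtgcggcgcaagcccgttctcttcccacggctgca
Rpl7l1 (chr17:46782637-46782736, minus strand): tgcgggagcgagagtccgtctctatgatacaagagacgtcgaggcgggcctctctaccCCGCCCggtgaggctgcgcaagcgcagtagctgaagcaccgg
Rps27l (chr9:66946006-66946105, plus strand): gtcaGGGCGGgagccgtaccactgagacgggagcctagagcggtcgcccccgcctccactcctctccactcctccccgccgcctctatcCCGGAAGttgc

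An entry in the promoter table, which holds 250 bases before and 50 bases after each start, was found for 57 of the 76 expressed members. Of the 57, 23 (40.4%) held a short pyrimidine run (CTCTTT, or else the run CTTTCC, or else the run CTTTTC, or else the run CTTCCT, on the gene's strand within 20 bases of the start), against 8.96% of 7601 other expressed genes and 8.58% of all 27025 genes in the table. These runs overlap the TOP motif in kind but are not a call of it. The ETS-type motif CCGGAAG, searched on both strands over the whole 300 bases, was in 23 (40.4%) of the members, against 22.0% of the other expressed genes and 9.93% of all genes. The YY1-type motif AAGATGGC was in 6 (10.5%) against 5.99% of other expressed genes, the GC box GGGCGG in 37 (64.9%) against 69.8%, and TATAAA in 7 (12.3%) against 8.62%, both strands in each case. Within 20 bases of the start, of the genes printed Rps27 and Rplp2 held a pyrimidine run of this list. In its printed sequence Rpl22l1 held TATAAA on both strands, in each case more than 20 bases before the start.

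The median expressed ribosomal protein gene had 953 normalised reads in mock and 1042, 1729, 1396, 729 and 587 on days 1, 3, 4, 5 and 7. The level was thus highest on day 3, and by this scale lowest on day 7. Of the 76 genes, 66 had their highest value on day 3, where 19.4% of all expressed genes had theirs, and 70 had their lowest value on day 7, against 34.7% of all expressed genes. Of the others, 6 were highest on day 4 (12.4% of all expressed genes), 2 on day 1 (30.1%), 1 in mock (4.89%) and 1 on day 5 (18%), and 4 were lowest on day 5 (4.37%), 1 on day 1 (19.4%) and 1 in mock (7.03%). By this scale, in 58 of the 76 the 5 libraries other than day 1 fell in the same order, with day 3 above day 4, then mock, day 5 and day 7. How many of all expressed genes had this order was not counted.

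The share of all reads that went to the 84 genes, which does not depend on how libraries were scaled to each other, was 0.807% in mock and 0.686%, 1.16%, 0.879%, 0.563% and 0.623% on days 1, 3, 4, 5 and 7. By share of reads 69 of the 76 genes were again highest on day 3, against 20% of all expressed genes. The lowest library changed: by share 51 were lowest on day 5 (8.88% of all expressed genes), 14 on day 1 (27.6%) and 9 on day 7 (15.2%). Which of days 5 and 7 was the lower one therefore rested on the scaling, and day 3 as the highest did not. Equal library totals would shift the ratio of every gene to mock by -0.25, -0.11, -0.19, -0.15 and 0.28 on the log2 scale on days 1, 3, 4, 5 and 7, and its ratio of day 7 to day 5 by 0.43. Values below use the deposited scaling, and all levels given as read are normalised read counts.

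**Figure D1:**
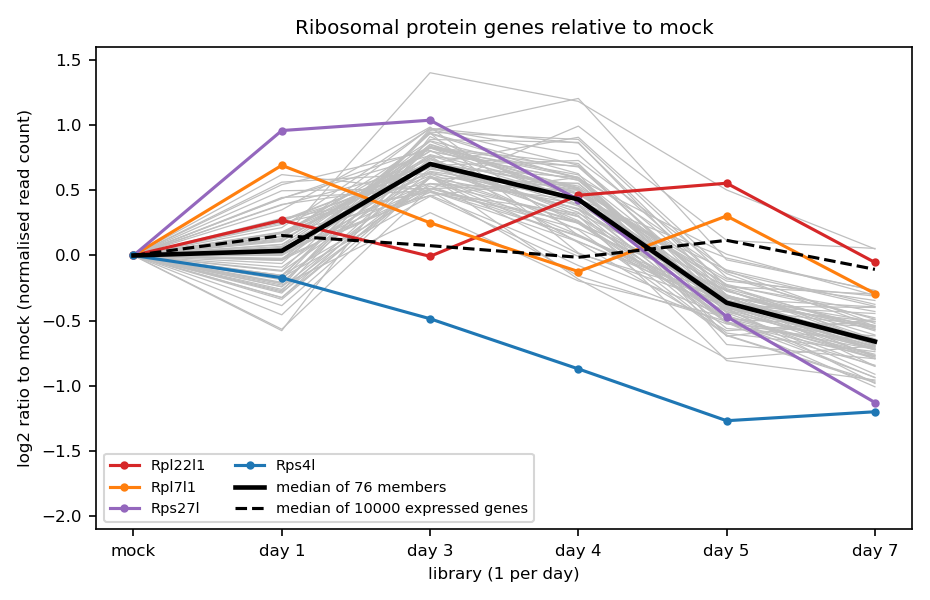
Log2 ratio to mock (vertical axis) of the 76 expressed ribosomal protein genes in the 6 libraries (horizontal axis, 1 library per day). Grey lines are single genes, the 4 coloured lines are paralogs, the thick black line is the members' median (0.70 on day 3 and -0.66 on day 7, or -0.38 on day 7 with equal library totals) and the dashed line is the median of all 10000 expressed genes.

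On day 1 the ribosomal protein genes as a group stood at the mock level by the deposited scaling. Ratios below are log2 ratios of normalised read counts with a pseudocount of 17.8, and a gene is counted as higher or lower when it differed by at least 1.5-fold. The median ratio of day 1 to mock was 0.04, against 0.15 for all expressed genes, and its sign turned with the scaling (-0.21 with equal library totals and -0.06 with TMM factors). Only 3 of 76 genes were higher, where 20.8% of all expressed genes were, and none was lower, where 16.4% were. The 3 were Rps27l, Rpl7l1 and Rpl27. Between them and the lowest (Rpl36a, Rpl10a and Rpl3) the members nevertheless spanned from -0.58 to 0.96.

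On day 3 nearly all of them were above mock together. The median ratio was 0.70 (1.63-fold), against 0.08 for all expressed genes. Of the 76 genes, 56 were higher, against 13.3% of all expressed genes, and none was lower, against 11%. The interquartile range of the members was 0.28, against 0.60 for all expressed genes. It was 0.29 for the expressed mitochondrial ribosomal protein genes, so the narrow spread was not particular to the members. The genes under 1.5-fold included Rpl30, Rpl4, Rpl5, Rps6 and Rplp0, and those below mock were the paralogs Rps4l and Rpl22l1. Against day 1, the day 3 library had 46 genes higher (18.2% of all expressed genes) and none lower (18.9%), with a median of 0.66. With the ratio counted at 2-fold only 2 of the 76 were higher than mock, Rps21 and Rps27l, against 3.73% of all expressed genes. Short mRNAs in general were also above mock on day 3, and relative to other genes of the same mRNA length only 6 of the 76 were higher at 1.5-fold, a share near the 8.22% of all expressed genes.

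Other lists of genes had their highest sum on day 3 too. The 20 cell cycle genes summed to 16601 in mock and 5599, 40242, 5161, 5362 and 7531 on days 1, 3, 4, 5 and 7, with a median ratio to mock of 1.56 on day 3, and 17 of the 20 were higher (13.3% of all expressed genes). The 8 duct genes, of which Spp1 made up most and is also a macrophage gene, summed to 10713 in mock and 205819 on day 3, and the 11 fibroblast and stellate cell genes to 3298 and 16245.5. Keratin Krt19 read 31.5 in mock and 62.8, 521, 40.1, 5.2 and 65.9 on days 1, 3, 4, 5 and 7, and the collagen Col1a1 183 in mock and 43.1, 2512, 36.2, 135 and 721 on days 1, 3, 4, 5 and 7. None of these duct and fibroblast genes was listed at 0 in any library. The 6 erythroid genes summed to 1719.9 in mock and 129, 3612, 321, 36.4 and 1263 on days 1, 3, 4, 5 and 7, and were again highest on day 3. Lymphoid lists went the other way, with medians of -2.48 for T cell, -3.00 for B cell and -3.62 for NK cell genes on day 3, and stood at 0.48, 0.25 and 1.16 on day 7. Cell cycle, duct and erythroid genes thus peaked on the same day as the ribosomal protein genes, but on day 4 the cell cycle list was below mock (median -2.02) while the ribosomal protein genes were above it. The part of other cells and of dividing cells in the day 3 level was not tested, and in such bulk libraries fewer cells of a type and less RNA per cell cannot be told apart.

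On day 4 the group was still above mock, at a median of 0.43 against -0.01 for all expressed genes. There were 20 members higher, against 10.1% of all expressed genes, and 1 lower, Rps4l, against 15.4%. Relative to day 3 the median was -0.31 against -0.08. Only 7 of 76 were lower than on day 3 at 1.5-fold (14.6% of all expressed genes) and none higher (9.83%). Among the 7 were Rps2, Rpsa, Rpl5, Rpl12 and Rps27l. A further 7 were above their day 3 level, although none by 1.5-fold, among them Rps27, Rpl22l1, Rpl35, Rpl30 and Rpl10a. Of all 10000 expressed genes 4321 were above their day 3 level.

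A common step to lower levels came between day 4 and day 5. The median ratio was -0.78, against 0.12 for all expressed genes, and 55 of 76 members were lower, against 10.3% of all expressed genes. None was higher, against 17.5%. At 2-fold 15 were lower (3.11% of all expressed genes). Day 5 was then below mock, at a median of -0.36 against 0.12, with 8 members lower (11.2% of all expressed genes) and none higher (13.4%). The 8 were Rps4l, Rpl39, Rpsa, Rps15a, Rpl35a, Rps4x, Rpl14 and Rpl15.

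Day 7 stood lowest relative to mock by the deposited scaling. The median was -0.66 (0.633 of the mock level) against -0.11 for all expressed genes, with 44 of 76 members lower (21.4% of all expressed genes) and none higher (9.32%). At 2-fold 3 were lower (6.57% of all expressed genes). With equal library totals the median was -0.38 and 11 of 76 members were lower at 1.5-fold, against 10.3% of all expressed genes under that scaling. Against day 5 the median was -0.30, close to the -0.25 of all expressed genes. Only 3 members, all paralogs, were lower on day 7 than on day 5 (21.5% of all expressed genes), and none was higher (8.62%). The 17 acinar genes summed to 859971 in mock and 993470 on day 7, and to between 43443 and 170765 on the days between. Acinar RNA was thus high in mock and on day 7 and low on days 1 to 5, and 1 of the 17 genes, Amy2a5, was listed at 0 on day 1. Its part in these ratios was not tested.

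The day 1, 3, 4, 5 and 7 ratios share the mock library. A single mock library that stood high or low would move all of them by the same amount, which is why the steps between successive days are given beside them. Those steps share a library with their neighbours as well.

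**Figure D2:**
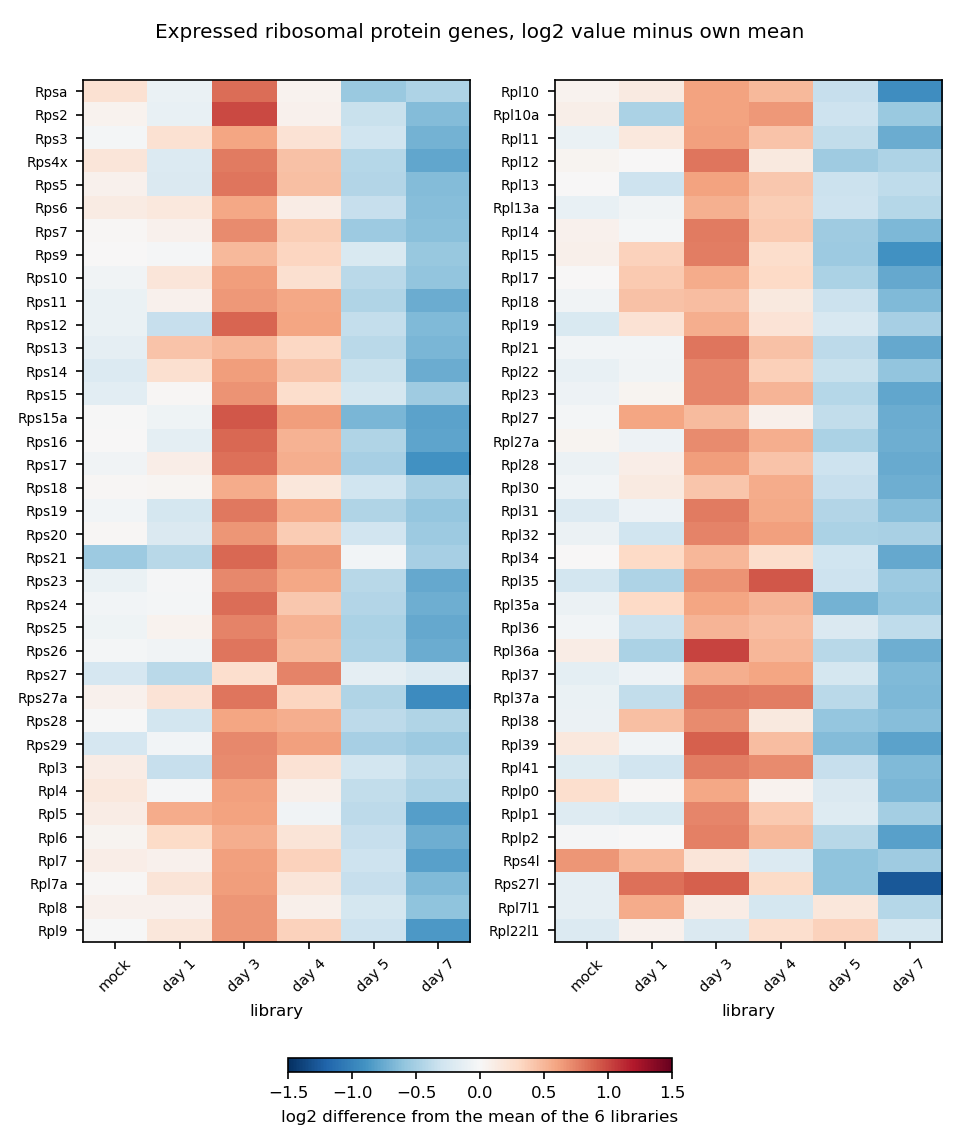
Log2 level of each expressed ribosomal protein gene minus its own mean over the 6 libraries (colour, red above and blue below the mean), 74 of the 76 genes in rows and libraries in columns. Day 3 is the reddest column in most rows and, by the deposited scaling, day 7 the bluest; among the rows that depart from this are the paralogs Rpl22l1, Rpl7l1 and Rps4l, and Rps27.

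In the 40S subunit all 30 genes were expressed, and all 30 were above mock on day 3, 26 of them by at least 1.5-fold. Of all 10000 expressed genes 5670 were above mock on day 3, and 13.3% by at least 1.5-fold. The medians of the 40S genes relative to mock were 0.02, 0.78, 0.44, -0.39 and -0.66 on those 5 days in turn. The 39 expressed 60S genes had medians of 0.06, 0.69, 0.43, -0.35 and -0.66. All 39 were above mock on day 3 and below it on days 5 and 7. Of all 10000 expressed genes 3965 were below mock on day 5 and 5760 on day 7. With equal library totals the 60S median on day 7 was -0.38. Within each library, reads of the 40S genes divided by reads of the 60S genes gave 0.682 in mock and 0.697, 0.719, 0.680, 0.671 and 0.669 on days 1, 3, 4, 5 and 7. The balance between the subunits thus moved far less than the level of either.

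Rps25, a 40S protein, read 979.8 in mock and 1057, 1719.9, 1471, 730.1 and 591 on days 1, 3, 4, 5 and 7. It followed the common course with a root mean square distance of 0.028 on the log2 scale from the members' median profile. Its ratio to mock was 0.80 (0.71 to 0.92) on day 3 and -0.71 (-0.87 to -0.59) on day 7. Brackets here and below hold a 95% Clopper-Pearson interval, taken on the reads without the pseudocount, which covers counting error only. It leaves out the shift between scalings given above. Statements that a gene was level with, above or below mock hold for the deposited scaling.

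Rps6, the 40S protein that S6 kinase phosphorylates downstream of mTORC1, read 4157 in mock and 4246, 5734, 4139, 3000.3 and 2450.2 on days 1, 3, 4, 5 and 7. Its day 3 level was the highest and its day 4 level was within counting error of mock, with ratios of 0.46 (0.41 to 0.52) and -0.01 (-0.07 to 0.06). On day 7 it stood at -0.76 (-0.83 to -0.69). Rps3, which lies at the mRNA entry of the 40S subunit and has known roles in DNA repair and NF-kB signalling, read 5512 in mock and 6642, 8509, 6552, 4584 and 3459 on days 1, 3, 4, 5 and 7. By the deposited scaling it was already above mock on day 1, at 0.27 (0.22 to 0.32), and reached 0.62 (0.58 to 0.67) on day 3. Equal library totals would shift the day 1 ratio by -0.25.

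Rps19, needed for 40S maturation and the gene most often mutated in Diamond-Blackfan anaemia, read 2568 in mock and 2208, 4587, 3897, 1935 and 1761 on days 1, 3, 4, 5 and 7. It was above mock on days 3 and 4, by 0.83 (0.77 to 0.90) and 0.60 (0.53 to 0.68), and below it in the other 3 caerulein libraries. Rpsa, which doubles as a laminin receptor precursor, read 5179.8 in mock and 4098, 7909, 4562, 2984 and 3196 on days 1, 3, 4, 5 and 7. It left the common course after day 3: day 4 was already below mock, at -0.18 (-0.24 to -0.12), and day 5 was its lowest library, at -0.79 (-0.86 to -0.73).

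Rps2, which lies at the mRNA entry of the 40S subunit, had the lowest ratio of any member between days 3 and 4. It read 2142 in mock and 1915, 4125, 2171, 1636 and 1315 on days 1, 3, 4, 5 and 7, and day 4 relative to day 3 was -0.92 (-1.01 to -0.85). A processed pseudogene row, Rps2-ps10, held about as much as Rps2 itself, with 2233 in mock and 1943, 3906, 1828, 1505 and 1091 on days 1, 3, 4, 5 and 7. No source used here says how reads shared by such copies were counted, so the split between these rows is uncertain.

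Rps21, the least abundant expressed member per kilobase in mock, read 63 in mock and 70.1, 196, 166, 96.7 and 65.9 on days 1, 3, 4, 5 and 7. Its lowest library was mock, as in no other of the 76, and its ratio on day 3 was 1.40 (1.24 to 2.05), the highest of all members. It rested on 66 reads in mock and 278 on day 3. Rps12 and Rps15a were also near the top of single steps. Rps12 read 345 in mock and 289, 692, 568, 286 and 229 on days 1, 3, 4, 5 and 7, and day 3 relative to day 1 was 1.21 (1.05 to 1.47). Rps15a read 418 in mock and 400.0, 818, 656, 254 and 234 on days 1, 3, 4, 5 and 7, and its -1.31 (-1.60 to -1.15) from day 4 to day 5 was the lowest ratio of any member in that step.

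Rps27a encodes ubiquitin fused to a 40S protein, and so supplies both. Its reads were 1535 in mock and 1697, 2585, 1850.2, 1069 and 754 on days 1, 3, 4, 5 and 7. With -1.01 (-1.14 to -0.91) on day 7 it was the lowest 40S member other than the paralogs. Fau, a ubiquitin-like protein fused to a 40S protein and outside the naming rule, read 1237 in mock and 1521, 1885, 2038, 1108 and 933 on days 1, 3, 4, 5 and 7. Rps27a and Fau were highest on days 3 and 4 respectively.

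In the 60S subunit Rpl23 read 759 in mock and 823, 1335, 1141, 588 and 459 on days 1, 3, 4, 5 and 7. With a distance of 0.027 it was the member closest to the common course. The abundant Rpl10, which joins the subunit last before it can bind the 40S subunit, read 5337 in mock and 5665, 7837, 7182, 4028 and 2693 on days 1, 3, 4, 5 and 7. Its ratio was 0.55 (0.51 to 0.60) on day 3 and -0.98 (-1.05 to -0.92) on day 7.

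Rpl5 and Rpl11, which with 5S rRNA form a particle that binds the p53 inhibitor Mdm2 when ribosome assembly fails, did not share a course. Rpl5 read 1795 in mock and 2450.2, 2542, 1607, 1258 and 929.9 on days 1, 3, 4, 5 and 7. It was above mock on days 1 and 3 alike, at 0.44 (0.36 to 0.54) and 0.50 (0.42 to 0.58), and below mock on day 4, at -0.16 (-0.26 to -0.06). Rpl11 read 1214 in mock and 1457, 1999, 1764, 1008 and 772 on days 1, 3, 4, 5 and 7, and its day 4 ratio was 0.53 (0.43 to 0.65). The count intervals of the 2 genes on day 4 do not meet. Mdm2 itself read 2179 in mock and 2766, 1471, 1659, 1482 and 1096 on days 1, 3, 4, 5 and 7, highest on day 1.

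Rpl13a, known from human monocytes to leave the ribosome after interferon and hold back the translation of inflammatory mRNAs, read 1008 in mock and 1047, 1588, 1408, 878 and 809 on days 1, 3, 4, 5 and 7. On day 7 it stood at -0.31 (-0.45 to -0.19), above the 60S median of -0.66. Rpl3, which lies at the peptidyl transferase centre, read 5399 in mock and 3933, 8196, 5821, 4140.1 and 3791 on days 1, 3, 4, 5 and 7. Day 1 was well below mock, at -0.46 (-0.52 to -0.39). A pseudogene row, Rpl3-ps1, read 639 in mock and 450.4, 876, 506, 459.7 and 372 on days 1, 3, 4, 5 and 7, and was likewise lower on day 1.

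Rpl10a and Rpl36a were the lowest of all members on day 1. Rpl10a read 1526 in mock and 1025, 2185, 2246, 1148 and 962 on days 1, 3, 4, 5 and 7, and its day 1 ratio was -0.57 (-0.70 to -0.45). Rpl36a read 178 in mock and 113, 350.0, 238, 119 and 91.2 on days 1, 3, 4, 5 and 7, with -0.58 (-1.03 to -0.28) on day 1 and 1.49 (1.30 to 1.97) from day 1 to day 3. Its near-identical partner Rpl36al, outside the naming rule, went the other way on day 1, with 743 in mock and 1548, 1078, 879.8, 572 and 366 on days 1, 3, 4, 5 and 7. Of the reads of this pair, Rpl36al held 80.7% in mock and 93.2%, 75.5%, 78.7%, 82.8% and 80.0% on days 1, 3, 4, 5 and 7. Its share was highest on day 1, with an interval of 91.7% to 94.5% against 78.1% to 83.2% in mock. How reads shared by this pair were counted is not given by any source used here, so the split is uncertain.

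By the deposited scaling, Rpl27 was the only 60S subunit gene outside the paralogs with its highest value on day 1. By share of reads its day 3 level was slightly the higher one, with 1864 of 25726455 reads against 1164 of 16200131 on day 1. Rpl27 read 925 in mock and 1432, 1313, 996, 728 and 555 on days 1, 3, 4, 5 and 7, and its ratios to mock were 0.62 (0.51 to 0.75) on day 1 and 0.50 (0.39 to 0.62) on day 3. Rpl35 was highest on day 4 instead. It read 256 in mock and 223, 514, 613, 249.6 and 209 on days 1, 3, 4, 5 and 7, with 1.21 (1.04 to 1.48) on day 4, the highest ratio of any member that day.

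Rpl39, a small protein of the exit tunnel, read 146 in mock and 124, 257, 185, 75.9 and 66.7 on days 1, 3, 4, 5 and 7, and on day 5 stood at -0.81 (-1.37 to -0.53). Rpl35a read 97.4 in mock and 133, 168, 157, 57.2 and 64.2 on days 1, 3, 4, 5 and 7, and Rpl12, next to the stalk base, 713 in mock and 694, 1223, 765, 472 and 497 on days 1, 3, 4, 5 and 7. In both, day 7 was within counting error of day 5, at 0.13 (-0.35 to 0.69) and 0.07 (-0.10 to 0.26). By the deposited scaling 72 of 76 members were lower on day 7 than on day 5, as were 7041 of all 10000 expressed genes. With equal library totals the members' median for this step turned to 0.12.

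The stalk proteins Rplp0, Rplp1 and Rplp2 form the arm of the 60S subunit that recruits the translation factors. Rplp2 read 854 in mock and 865, 1473, 1219, 644 and 486 on days 1, 3, 4, 5 and 7, close to the common course. Rplp1 read 1060.0 in mock and 1036, 2042, 1601, 1067 and 854 on days 1, 3, 4, 5 and 7. Its day 5 level was within counting error of mock, at 0.01 (-0.11 to 0.13).

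Rplp0, the stalk base that holds both others and a frequent reference gene in PCR, read 5268 in mock and 4497, 6621, 4597, 3791 and 2742 on days 1, 3, 4, 5 and 7. Its day 3 ratio of 0.33 (0.28 to 0.38) was the lowest of all members other than the paralogs, and on day 4 it was below mock, at -0.20 (-0.26 to -0.14). On day 7 it stood at -0.94 (-1.01 to -0.88), below the median of the members. Across these libraries Rplp0 therefore spanned 2.42-fold, and Rpl13a, another common reference gene, 1.96-fold.

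Of the 8 paralogs 4 were expressed. Rps27l, Rpl22l1, Rpl7l1 and Rps4l were the 4 expressed members with the widest range once the members' median was taken from each library, followed by Rps27 and Rpl5. Root mean square distances from the median profile were 0.57 for Rpl22l1, 0.53 for Rpl7l1, 0.52 for Rps4l, 0.41 for Rps27 and 0.39 for Rps27l. The median over all 76 members was 0.18, and over the other expressed genes 0.61. Because the profile was taken from these same members, this comparison favours them and does not test how alike they are.

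Rps27l, a p53 target whose protein differs from Rps27 in a few residues, read 858 in mock and 1684, 1779.8, 1161, 615 and 383 on days 1, 3, 4, 5 and 7. It was near its highest level already on day 1, at 0.96 (0.85 to 1.10), and on day 7 it stood at -1.13 (-1.33 to -1.0). Its partner Rps27 read 479 in mock and 429, 689.5, 972, 521 and 498 on days 1, 3, 4, 5 and 7. Rps27 peaked on day 4, at 0.99 (0.85 to 1.19), and on day 7 was level with mock by the deposited scaling, at 0.05 (-0.12 to 0.23). Equal library totals would shift the day 7 ratio by 0.28.

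Of the reads of the pair, Rps27l held 64.1% in mock and 79.7%, 72.1%, 54.4%, 54.1% and 43.4% on days 1, 3, 4, 5 and 7. The intervals of day 1 (77.7% to 81.6%), mock (61.6% to 66.7%) and day 7 (40.4% to 46.5%) do not overlap. Beyond counting error the share of Rps27l was thus higher on day 1 than in mock, and lower on day 7. This share does not depend on the scaling of the libraries. It is not corrected for mRNA length, annotated as 499 bases for Rps27l and 345 for Rps27. Per kilobase, Rps27l was above Rps27 in mock (1719 against 1390) and already below it on day 4 (2326 against 2817). Cdkn1a, another p53 target, read 8927 in mock and 15337, 13655, 11829, 6792 and 2998 on days 1, 3, 4, 5 and 7. It was highest on day 1 and lowest on day 7, as the Rps27l share of the pair was. The level of Rps27l itself was highest on day 3. Mdm2 was also highest on day 1 and lowest on day 7, but stood below mock on days 3 and 4, at -0.56 and -0.39. A part of p53 in these levels was not tested.

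Rpl7l1, a paralog of Rpl7 tied to early assembly of the 60S subunit, read 2355 in mock and 3815, 2805, 2161, 2909.8 and 1919.8 on days 1, 3, 4, 5 and 7. It was above mock on day 1, at 0.69 (0.62 to 0.77), and less so on days 3 and 5, at 0.25 (0.18 to 0.33) and 0.30 (0.23 to 0.38). From day 4 to day 5 it was the highest of all members, at 0.43 (0.34 to 0.52), in the step where 74 of 76 were lower. Of all 10000 expressed genes 4072 were lower in that step. Rpl7 read 4413 in mock and 4302, 6316, 5243, 3305 and 2338 on days 1, 3, 4, 5 and 7, and of the reads of the pair Rpl7l1 held 34.8% in mock and 47.0%, 30.8%, 29.2%, 46.8% and 45.1% on days 1, 3, 4, 5 and 7.

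Rpl22l1, which Rpl22 is known to hold down, read 104 in mock and 129, 104, 150.1, 161 and 99.7 on days 1, 3, 4, 5 and 7. It was the only member highest on day 5, at 0.55 (0.27 to 1.00), and on day 3 it was level with mock, at -0.01 (-0.38 to 0.36). Rpl22 read 294 in mock and 308, 540.2, 414, 249.6 and 206 on days 1, 3, 4, 5 and 7, with day 3 highest. Rpl22l1 held 26.1% in mock and 29.6%, 16.1%, 26.6%, 39.2% and 32.6% on days 1, 3, 4, 5 and 7 of the pair's reads, lowest on day 3 (13.8% to 18.6%) and highest on day 5 (34.4% to 44.2%).

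Rps4l was the only member highest in mock. It read 265 in mock and 234, 185, 137, 99.8 and 106 on days 1, 3, 4, 5 and 7, with -1.27 (-1.76 to -1.07) on day 5 and -1.20 (-1.65 to -1.02) on day 7. GENCODE M21 lists it as a transcribed processed pseudogene, so its row may not stand for a protein. Rps4x, the X-linked gene it resembles, read 2527 in mock and 1931, 3830.0, 3032, 1648 and 1285 on days 1, 3, 4, 5 and 7, with -0.39 (-0.48 to -0.30) on day 1 and -0.97 (-1.07 to -0.88) on day 7. Rps4l held 9.51% in mock and 10.8%, 4.60%, 4.33%, 5.71% and 7.59% on days 1, 3, 4, 5 and 7 of the pair's reads.

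**Figure D3:**
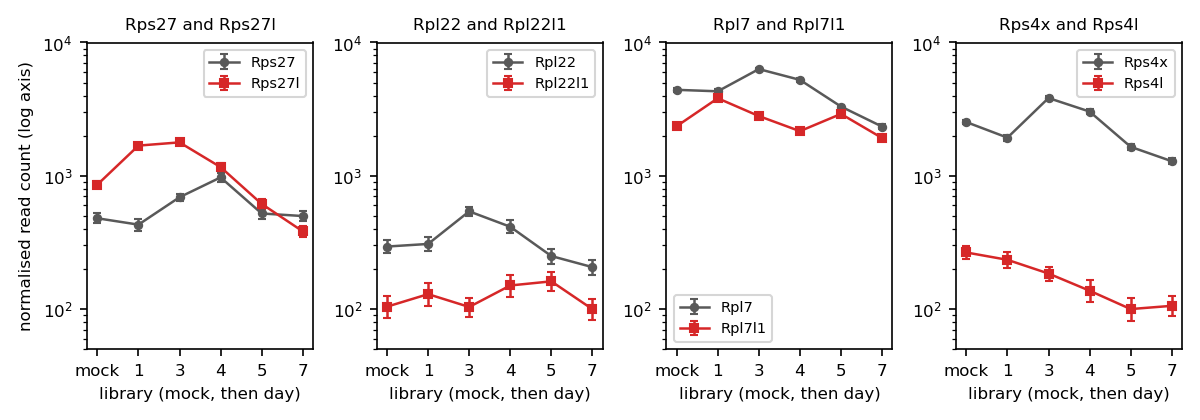
Normalised read counts (vertical axis, log scale) of 4 paralogs (red squares) and their partners (grey circles) in mock and on days 1, 3, 4, 5 and 7. Bars are 95% counting intervals, and counts are not divided by mRNA length. Rps27l is above Rps27 until day 5 and below it on day 7, while Rpl22l1, Rpl7l1 and Rps4l stay below their partners.

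The other 8 members were not among the expressed genes. Rpl3l, the muscle paralog of Rpl3, had between 3 and 9 reads in each library. Rpl10l and Rpl39l, known from the testis, had at most 1 and 4 reads. Rpl6l, listed by GENCODE M21 as a processed pseudogene, read 28.6 in mock and 30.8, 35.9, 28.5, 25 and 11 on days 1, 3, 4, 5 and 7.

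Another 4 were standard 60S genes, Rpl24, Rpl23a, Rpl26 and Rpl29, whose proteins are part of the ribosome in most cells. Rpl24 had at most 9 reads in any library. Rpl23a read 7.64 in mock and 13.5, 27.5, 11.6, 4.16 and 8.45 on days 1, 3, 4, 5 and 7, Rpl26 64.9 in mock and 97.2, 104, 73.8, 54.1 and 29.6 on days 1, 3, 4, 5 and 7 and Rpl29 63 in mock and 60.3, 101, 84.1, 42.6 and 52.4 on days 1, 3, 4, 5 and 7. Rpl23a, Rpl26 and Rpl29 were highest on day 3, as most members were. These levels lay far below the 953 of the median expressed member in mock. No source used here says how shared reads and pseudogene copies entered these rows, so these 4 levels do not show how much mRNA the cells held.

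Per kilobase of annotated mRNA, levels can be compared between genes. In mock the 76 genes ran from 160.0 to 10554 normalised reads per kilobase, with a median of 1516. Rpl13 was highest in mean, followed by Rps9, Rpl10 and Rpl4. At the low end were Rps20, Rps4l, Rpl22l1, Rpl35a and Rpl39, although Rps20 is annotated with 1 principal transcript of 3706 bases, far longer than its coding part. The median per kilobase was 1791, 2368, 2117, 1249.7 and 969 on days 1, 3, 4, 5 and 7.

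The members are short mRNAs, with a median annotated length of 751 bases against 2702 for the other expressed genes, and short mRNAs as a whole moved in these libraries. Other expressed genes of 500 to 1000 bases (732 genes) had a median ratio to mock of 0.42, 0.44, 0.24, -0.13 and -0.66 on days 1, 3, 4, 5 and 7. The 40 members of the same length had 0.08, 0.71, 0.43, -0.35 and -0.67. Other expressed genes of 4000 bases or more had 0.07, -0.06, -0.04, 0.19 and 0.14.

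With the median of other genes in the same length class taken from each member, the members' median was 0.34 on day 3, 0.19 on day 4 and -0.25 on day 5. At 1.5-fold on this scale 6 of 76 members were higher on day 3, where 8.22% of 9991 expressed genes with a length were, and 5 on day 4, where 9.95% were. The day 3 and day 4 counts were thus near or below the share of all genes, although the medians stayed above 0. On day 7 the median was -0.03 and 1 member was lower (11.9% of expressed genes): the lower level on day 7 was matched by other mRNAs of the same length. On day 1 it was -0.32, below short mRNAs in general. From day 4 to day 5 it was -0.46, with 21 members lower, against 11.8% of expressed genes. Whether mRNA length, RNA integrity or library preparation set these shifts was not tested.

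**Figure D4:**
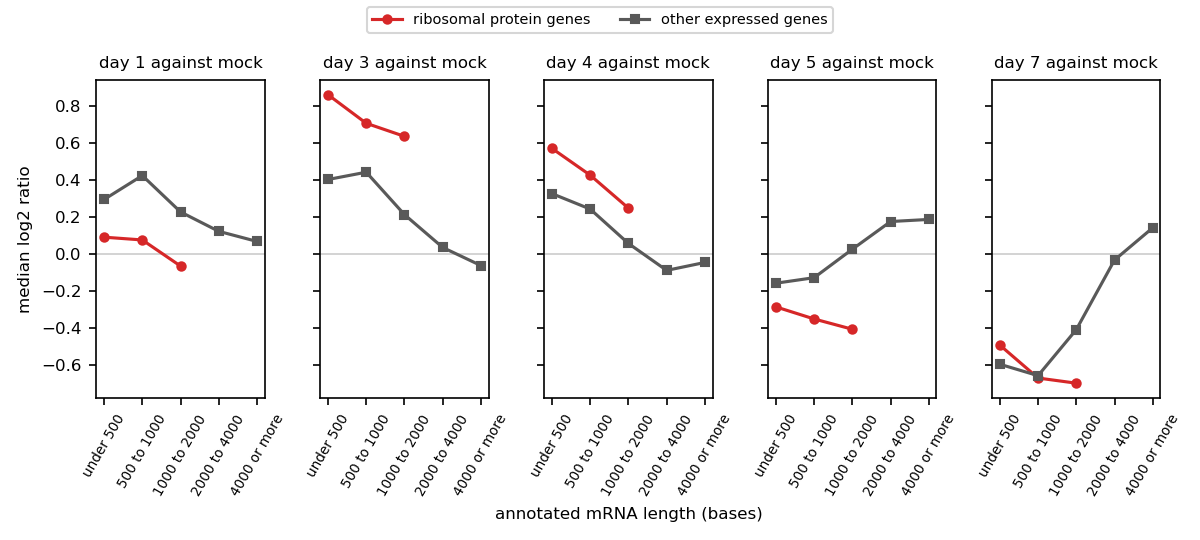
Median log2 ratio to mock (vertical axis) by class of annotated mRNA length in bases (horizontal axis) for ribosomal protein genes (red circles, classes with at least 5 members) and other expressed genes (grey squares), 1 panel per day. On day 3 the red points lie above the grey ones (0.71 against 0.44 at 500 to 1000 bases), and on day 7 they nearly coincide (-0.67 against -0.66).

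Other genes of the translation machinery were read from lists. Of the TOP-type translation genes, that is, elongation factors and others whose mRNAs carry the same motif, 14 were expressed. Their median ratio to mock was 0.10, 0.50, 0.01, -0.48 and -0.73 on days 1, 3, 4, 5 and 7, and 2 were higher on day 3 (13.3% of all expressed genes) and 9 lower on day 7 (21.4%). Tpt1 read 5675 in mock and 9721, 8646, 7369, 4003 and 2443 on days 1, 3, 4, 5 and 7, and Npm1 2607 in mock and 2515, 3912, 3096, 1889 and 1444 on days 1, 3, 4, 5 and 7. Npm1, a nucleolar chaperone, was highest on day 3, and Tpt1 on day 1.

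The 29 initiation factors had medians of 0.30, 0.17, -0.03, -0.13 and -0.69 on the same days. On day 1, 9 of them were higher, against 20.8% of all expressed genes, and on day 7, 16 were lower, against 21.4%. Eif4e, which binds the mRNA cap, read 2763 in mock and 5804, 3352, 2047, 2253 and 1232 on days 1, 3, 4, 5 and 7, and Eif4a1, the helicase beside it, 9468 in mock and 17759, 10008, 9965, 7904 and 5128 on days 1, 3, 4, 5 and 7. Both were highest on day 1, when the ribosomal protein genes as a group stood at the mock level by the deposited scaling. With equal library totals the median of the ribosomal protein genes was -0.21 that day.

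The 40 ribosome biogenesis genes, which build the subunits in the nucleolus, had medians of 0.44, -0.10, -0.28, -0.05 and -0.18. On day 1, 16 of 40 were higher (20.8% of all expressed genes) and none lower (16.4%). On day 3, 2 were higher (13.3%) and 2 lower (11%). Nop2, an rRNA methyltransferase, read 453 in mock and 964, 376, 248, 561 and 457 on days 1, 3, 4, 5 and 7, and Ebna1bp2 1502 in mock and 3244, 1442, 1249.9, 1268 and 989 on days 1, 3, 4, 5 and 7. Assembly genes were thus highest on day 1 and ribosomal protein genes on day 3. The 14 genes of RNA polymerase I and its factors, which transcribe rRNA, had medians of 0.23, -0.01, -0.04, -0.03 and -0.14.

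Mitochondrial ribosomal proteins, encoded in the nucleus, shared part of the course. The 75 expressed of 80 had medians of 0.58, 0.54, 0.16, -0.13 and -0.72. On day 1, 36 were higher than mock, against 3 of 76 cytosolic ones, and on day 3, 31 were higher. Of all expressed genes 20.8% and 13.3% were higher on those days. Day 3 relative to day 1 was -0.06 for them and 0.66 for the cytosolic genes. The mRNAs of the mitochondrial genome itself (10 expressed) had medians of -0.98, 0.07, 0.27, -0.88 and -1.33. mt-Cytb, a subunit of complex III, read 13233 in mock and 5558, 16435, 16262, 6911 and 5212 on days 1, 3, 4, 5 and 7. Like the cytosolic genes, the mitochondrial list was above or level with mock on days 3 and 4 and below on days 5 and 7. Unlike them, it had its highest median on day 4. On day 1, 9 of its 10 genes were lower than mock (16.4% of all expressed genes), while no cytosolic one was.

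Regulators were read from a pair of lists. The 20 mTORC1 pathway genes had medians of 0.29, 0.03, 0.04, 0.17 and 0.11, and the 10 expressed genes of the MYC family -0.36, -0.32, -0.54, -0.35 and -0.37. Within these lists Deptor, an mTOR inhibitor, read 734 in mock and 70.1, 656, 879.8, 552 and 578 on days 1, 3, 4, 5 and 7, and Max, the partner of Myc, 678 in mock and 1469, 539, 391, 951 and 688 on days 1, 3, 4, 5 and 7. Both stood furthest from mock on day 1, Deptor below it and Max above it.

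**Figure D5:**
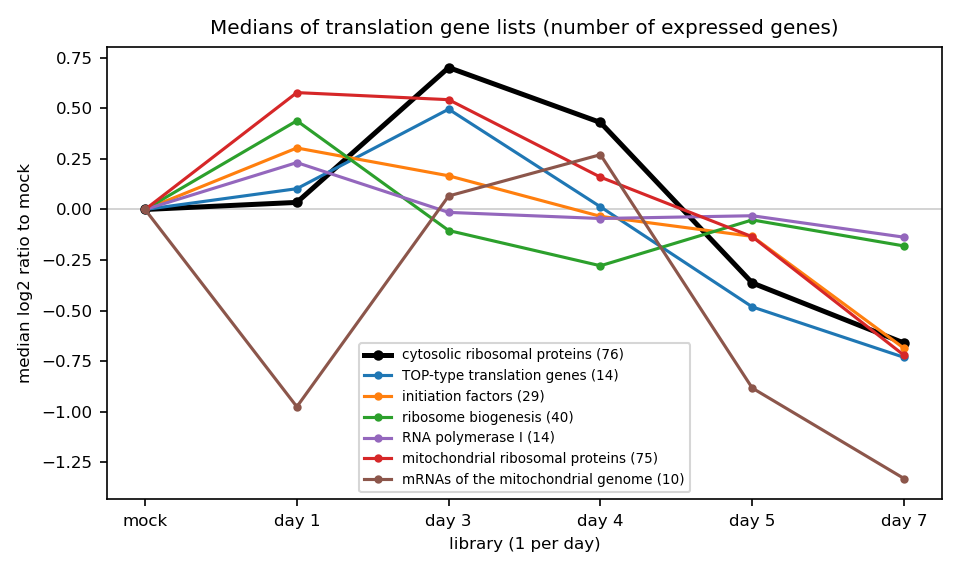
Median log2 ratio to mock (vertical axis) of 7 gene lists in the 6 libraries (horizontal axis), with the number of expressed genes in brackets. Cytosolic ribosomal proteins (black) are highest on day 3 at 0.70, ribosome biogenesis genes (green) on day 1 at 0.44, and mitochondrial ribosomal proteins (red) are near the same level on days 1 and 3, at 0.58 and 0.54.

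Outside the members, the expressed genes whose course was closest to the members' median were Uqcr10, Dpy30, Mnat1, Uqcrh and Rps3a1, by root mean square distance over the 6 libraries after each gene's own mean was taken off. The distances were 0.065, 0.084, 0.084, 0.090 and 0.091. Uqcr10, a subunit of complex III of the respiratory chain, read 474 in mock and 539, 919, 649.5, 385 and 296 on days 1, 3, 4, 5 and 7. Rps3a1 is a 40S gene that the naming rule leaves out, and read 2949.9 in mock and 2673, 4683, 3688, 1889 and 1562 on days 1, 3, 4, 5 and 7.

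The libraries held between 14853084 and 25726455 reads, day 3 the most, and the genes of the sort were present in all of them. Ptprc (CD45) ran from 7282 to 12626, Adgre1 (F4/80) from 9671 to 23702 and the main row of Itgam (CD11b) from 678 to 2627. The median counting interval of a member's ratio reached between 0.11 and 0.15 to either side. Because whole reads could be recovered, count tests were run with libraries of different days as replicates. In edgeR's quasi-likelihood test of the 5 caerulein libraries against mock, 0 of 80 members and 0% of 14106 genes passed an adjusted p of 0.05. At an unadjusted p below that, edgeR had 102 genes and 0 members. DESeq2 called 2 genes (0.0142%) and 0 members. For a trend over day edgeR again called 0 genes, with 806 genes and 2 members (Rps4l and Rpl5) at the unadjusted p, and DESeq2 called 20 genes (0.142%) and 0 members. Such tests see days that differ as noise and do not address a peak on 1 day.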

How the data were processed

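RNA was sequenced in 6 libraries, 1 each for mock and for days 1, 3, 4, 5 and 7. For each gene the authors deposited a normalised signal, in effect its count divided by 1 factor per library, since 100% of values in each library came to whole reads within 0.01. The submitters' processing notes name Bowtie 0.12.2 and build mm8 but assign them no step. No source used here names the gene counter, its annotation, its use of strand or its treatment of shared reads.

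The members and gene lists were chosen with earlier results of these data known. A pseudocount of 17.8 was added before ratios were taken on the log2 scale, which makes those of low genes too small, and the 10000 genes of highest mean counted as expressed. Genes were counted at 1.5-fold, with 2-fold as an alternative. Intervals are 95% Clopper-Pearson intervals of read ratios, and read shares of gene pairs have intervals of the same kind. They cover counting error only, because without molecular identifiers several reads can stem from 1 molecule.

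Genes were named by rule: the 3 highest and 3 lowest members of each comparison, the 6 with the widest range around the members' median, paralogs and their partners, stalk proteins, a set with well-known roles, up to 4 genes of each list by range, and the 5 non-members of most similar course. Rps25, Rpl23 and genes outside the naming pattern were added after their values were seen. Values of a few genes falling under this rule are left out here. Annotated mRNA length is that of the shortest principal transcript in GENCODE M21 (GRCm38), matched by identifier for all 84 members. Length classes, the longest transcript, read shares and count tests were added after the data were seen. In R 4.3.3, DESeq2 1.42.0 and the quasi-likelihood test of edgeR 4.0.16 were run where a gene had 60 reads or more in all. Ratios and figures were made with pandas 2.3.3, numpy 2.4.6, matplotlib 3.10.9 and scipy 1.17.1 under Python 3.11.15, and the recovery of reads, the ratios and the count tests were first checked on simulated data.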

Additional observations from a re-analysis of the deposited data

How the results depend on the processing

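Of 108 values of the members' median ratio under other settings, 83 kept the direction and moved by less than the counting half-width of a single member. With equal library totals the median was -0.21 for day 1 (reversed), 0.24 for day 4, -0.51 for day 5 and -0.38 for day 7, each against mock, 0.79 for day 3 against day 1 and 0.12 for day 7 against day 5 (reversed). TMM factors gave -0.062 for day 1, a reversal. Centred on the median expressed gene, medians were -0.075 for day 1 (reversed), -0.19 for day 4 against day 3, -0.95 for day 5 against day 4 and -0.11 for day 7 against day 5.

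Relative to other genes of the same mRNA length class, medians were -0.32 for day 1 (reversed), 0.34 for day 3, 0.19 for day 4 and -0.031 for day 7, then -0.14 for day 4 against day 3, -0.46 for day 5 against day 4 and 0.20 for day 7 against day 5 (reversed). With classes of the longest mRNA the same 7 values were -0.28, 0.34, 0.20, -0.046, -0.11, -0.45 and 0.20. The cause was not tested.

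Over the other scalings, pseudocounts, filters and sets of members at 1.5-fold, members higher than mock ranged from 42 to 57 on day 3 and from 8 to 25 on day 4. Members lower ranged from 5 to 22 on day 5, from 11 to 53 on day 7 and from 45 to 69 for day 5 against day 4. Relative to the same length class there were 6 members higher on day 3, 5 higher on day 4, 6 lower on day 5, 1 lower on day 7 and 21 lower for day 5 against day 4, or 9, 8, 7, 2 and 26 with classes of the longest mRNA. At 2-fold, 2 members were higher on day 3 and 3 lower on day 7. No paired analysis was possible because each group holds 1 library. Read depth limits single members with few reads, such as Rps21, Rpl22l1 and Rpl35a.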
